A study of Mus musculus with 12 samples.

Results

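The genes described are the nuclear-encoded subunits of oxidative phosphorylation, chosen by name from a table of gene expression in mouse brain: protein-coding genes whose symbol begins with Nduf plus a, b, c, s or v and a number, Ndufab1, Sdha to Sdhd, and symbols beginning with Uqcr, with Cox4 to Cox8, or with Atp5. The rule found 89 of 56748 genes, 38 in complex I, 4 in complex II, 8 in complex III, 21 in complex IV and 18 in complex V, with Ndufa4 and Ndufa4l2 counted in complex IV. Messenger RNA was sequenced from tissue labelled as whole brain, from 12 adult C57BL/6 mice, an inbred strain, with no engineered allele named and 1 library per mouse. The PBS arm received phosphate-buffered saline. The LPS arm received lipopolysaccharide, a bacterial cell wall component that triggers inflammation, at 0.5 mg/kg into the abdominal cavity each day. Mice of the LPS+DMA arm had that LPS together with N,N-dimethylacetamide, a solvent also used to dissolve drugs, at a dose that the labels do not state. Each arm held 2 females and 2 males, all killed on day 7, and the labels give no age in numbers. Because the labels describe treatment over the whole body and no sorting of cells, the groups do not separate cell types, and fewer cells of a type cannot be told apart from less RNA per cell. The comparisons asked how the subunit mRNAs differed with LPS, and how they differed when DMA was added to LPS.

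Complexes I to IV pass electrons from NADH and succinate to oxygen and pump protons out of the mitochondrial matrix, except for complex II, which does not pump. Complex V, the ATP synthase, lets the protons back in and makes ATP, which neurons need in large amounts to keep their ion gradients. All complexes but complex II combine subunits of the nuclear genome with subunits of the mitochondrial genome, and some complex IV subunits have a second isoform that is known from muscle, lung or testis.

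Many promoters of these genes are known to be served by the factors NRF1, GABPA and YY1, so the start regions were read for the letters of their motifs. RefSeq start windows (build GRCm38.p6, 250 bases before the start site to 50 after it) were matched by symbol for 70 of the members' symbols, in 75 windows. The NRF1 motif GCGCNTGCG, on either strand, was in 33.3% of the member windows and in 6.31% of all 32851 windows. The ETS motif CCGGAAG, which GABPA binds, was in 22.7% of member windows and 8.86% of all, and the YY1 motif AAGATGGC was in 13.3% and 2.75%. At least 1 of these 3 was found in 43 of the 75 windows, or 57.3%, against 16% of all windows. The TATA motif TATAAA was in 12% of member windows and 13.6% of all. TCAAGGTCA, the motif of estrogen-related receptors, was in 2 member windows, and the cyclic AMP element TGACGTCA in 4. The letters of the ETS and YY1 motifs can share bases where one runs into the other. Member windows had a median of 19 CpG dinucleotides and all windows a median of 7. A match is a description of letters, not a binding site.

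Printed are the windows of 5 genes that were lower with DMA, and of Cox8a, the common partner of Cox8b. Capitals mark the motif matches: ETS in Cox8a, TATA in Cox8b, YY1 in Ndufb8 and Atp5j2, and NRF1 in Ndufs5. The 2 muscle isoforms, Cox8b and Cox7a1, held none of the NRF1, ETS or YY1 letters, and their windows had 2 and 7 CpG dinucleotides, against 13 to 25 in the other 4. These 6 windows were chosen after the values were seen. Lacking the 3 motifs is not particular to the muscle isoforms: 32 of the 75 member windows hold none of them, among them that of Cox7b, a common subunit also lower with DMA, which has 5 CpG dinucleotides.
Cox8a, chr19:7217567-7217866, minus strand: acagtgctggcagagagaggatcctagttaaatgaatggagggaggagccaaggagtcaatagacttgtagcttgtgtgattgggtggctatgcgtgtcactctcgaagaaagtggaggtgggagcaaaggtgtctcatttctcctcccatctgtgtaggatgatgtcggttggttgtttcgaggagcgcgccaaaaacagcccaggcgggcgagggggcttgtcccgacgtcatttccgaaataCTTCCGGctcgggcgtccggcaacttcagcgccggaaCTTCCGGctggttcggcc
Cox8b, chr7:140900397-140900696, minus strand: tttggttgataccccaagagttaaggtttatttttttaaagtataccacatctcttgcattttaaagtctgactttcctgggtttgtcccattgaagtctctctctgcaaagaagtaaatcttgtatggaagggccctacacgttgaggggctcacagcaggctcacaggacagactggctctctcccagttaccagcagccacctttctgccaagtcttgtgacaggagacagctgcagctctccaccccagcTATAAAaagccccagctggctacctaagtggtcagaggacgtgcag
Cox7a1, chr7:30183921-30184220, plus strand: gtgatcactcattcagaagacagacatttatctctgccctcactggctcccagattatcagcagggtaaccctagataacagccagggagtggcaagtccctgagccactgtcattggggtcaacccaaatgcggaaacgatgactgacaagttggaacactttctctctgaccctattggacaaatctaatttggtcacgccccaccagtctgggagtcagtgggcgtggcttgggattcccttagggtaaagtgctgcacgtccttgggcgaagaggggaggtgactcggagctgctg
Ndufb8, chr19:44555393-44555692, minus strand: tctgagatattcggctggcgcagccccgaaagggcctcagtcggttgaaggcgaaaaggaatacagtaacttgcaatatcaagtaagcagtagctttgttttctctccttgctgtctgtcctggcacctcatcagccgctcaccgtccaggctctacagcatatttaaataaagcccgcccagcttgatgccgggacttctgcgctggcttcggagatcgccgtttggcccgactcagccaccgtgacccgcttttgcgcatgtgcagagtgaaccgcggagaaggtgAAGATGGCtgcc
Ndufs5, chr4:123718137-123718436, minus strand: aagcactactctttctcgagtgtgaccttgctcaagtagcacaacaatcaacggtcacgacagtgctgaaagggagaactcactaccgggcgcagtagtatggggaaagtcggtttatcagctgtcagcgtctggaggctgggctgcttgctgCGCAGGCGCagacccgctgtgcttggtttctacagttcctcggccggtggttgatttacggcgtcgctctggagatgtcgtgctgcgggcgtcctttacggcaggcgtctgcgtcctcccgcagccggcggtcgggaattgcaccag
Atp5j2, chr5:145191492-145191791, minus strand: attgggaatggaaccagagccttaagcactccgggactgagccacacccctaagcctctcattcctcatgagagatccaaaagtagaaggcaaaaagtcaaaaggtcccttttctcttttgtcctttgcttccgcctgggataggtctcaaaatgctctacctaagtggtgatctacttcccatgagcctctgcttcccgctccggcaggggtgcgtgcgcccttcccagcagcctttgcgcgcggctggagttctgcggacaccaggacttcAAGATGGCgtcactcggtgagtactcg

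Values are FPKM, the fragments of a gene divided by its length in kilobases and by a scale factor of the library. Depth was 27.5 to 41.4 M reads (M, megareads) per library, recovered from the whole-read steps of the FPKM, and member reads made up 0.728% to 1.29% of them. Markers of brain regions differed between the libraries. Gabra6, a receptor subunit of cerebellar granule cells, reached 15.6, 90.5 and 114 FPKM in 3 LPS libraries (male replicates 1 and 2, female replicate 1) and 74.6 in the first PBS female, and it was at 0.170 or less elsewhere. Camk2a, a kinase of forebrain neurons, was at 9.45 to 50.8 FPKM in those 3 LPS libraries and at 138 to 350.2 in the other 9. These markers go against a like whole brain in each library, since a cerebellar gene was at or near 0 in 8 of the 12. Summed choroid plexus markers (20 genes) ran from 260 to 2042 FPKM in LPS, 44.0 to 423 in PBS and 28.0 to 510 in LPS+DMA, with no marker at 0 in all libraries. Microglial markers (12 genes) summed to 339 to 430 FPKM in LPS, 202 to 248 in PBS and 170 to 212 in LPS+DMA. Red blood cell genes (9) summed to 243 to 946 FPKM in LPS, 71.1 to 116 in PBS and 29.1 to 297 in LPS+DMA. Oligodendrocyte markers (10 genes) summed to 1215 to 2232 FPKM in LPS, 612 to 1667 in PBS and 528 to 1155 in LPS+DMA. Astrocyte markers (10 genes) summed to 829 to 1312 FPKM in LPS, 722 to 977 in PBS and 671 to 813 in LPS+DMA. For the microglial, oligodendrocyte and astrocyte sums, every LPS library was above every LPS+DMA library. Singly, 3 of the 10 astrocyte genes were higher in LPS+DMA than in LPS. Neuron markers (10 genes) overlapped, at 1303 to 1519 FPKM in LPS and 1145 to 1521 in LPS+DMA. Ribosomal RNA made up 0.0499% of the reads in LPS female replicate 2 and 3.6% to 10.9% in the other 11 libraries. The part of these differences in the results that follow was not tested beyond the fits given for them. LPS+DMA male replicate 2 stood apart for the members, and results that rest on it are given with and without it.

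In PBS mice the members spanned a wide range of levels. On the FPKM scale, which divides by gene length, complex IV held both ends: Cox8a, a small subunit of cytochrome c oxidase, stood at 403 ± 27.7 FPKM (SD, n = 4) and Cox7b2, its testis-type subunit 7b, at 0.478 ± 0.185. The highest members of complex V were its catalytic subunit beta (Atp5b) at 242 ± 7.62 and its subunit alpha (Atp5a1) at 218 ± 3.92. In complex III the highest level was that of the hinge protein gene Uqcrh, 125 ± 3.50, and in complex II that of Sdha, the flavoprotein that oxidises succinate, 100.4 ± 6.16. Complex I ran from Ndufb2 at 4.51 ± 0.759 to Ndufa2 at 100.4 ± 7.86, both accessory subunits. Deposited gene lengths join all exons of a gene, so 23 of the 85 members with a GENCODE M21 coding transcript had a length over 2 times that of the longest one, and their FPKM are lower for it. With the M21 transcript lengths, Atp5b took rank 1, Cox4i1 rank 2 and Cox8a rank 3 of the levels over 12 libraries.

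Replicates were close in the controls. The coefficient of variation of a member over the 4 PBS mice had a median of 5.74%, against 8.67% in LPS and 21.4% in LPS+DMA. Of the 89 members, 86 passed the filter on low values (0.5 FPKM in at least 2 libraries) and were tested. The other 3, Ndufb11b, Cox8c and a second entry named Atp5o, were at 0 in all 12 libraries. For Cox8c, the testis-type form of subunit 8, a count of 0 allows up to 0.151 to 0.252 FPKM (3 reads), depending on the library, a limit that covers counting error only.

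**Figure D1:**
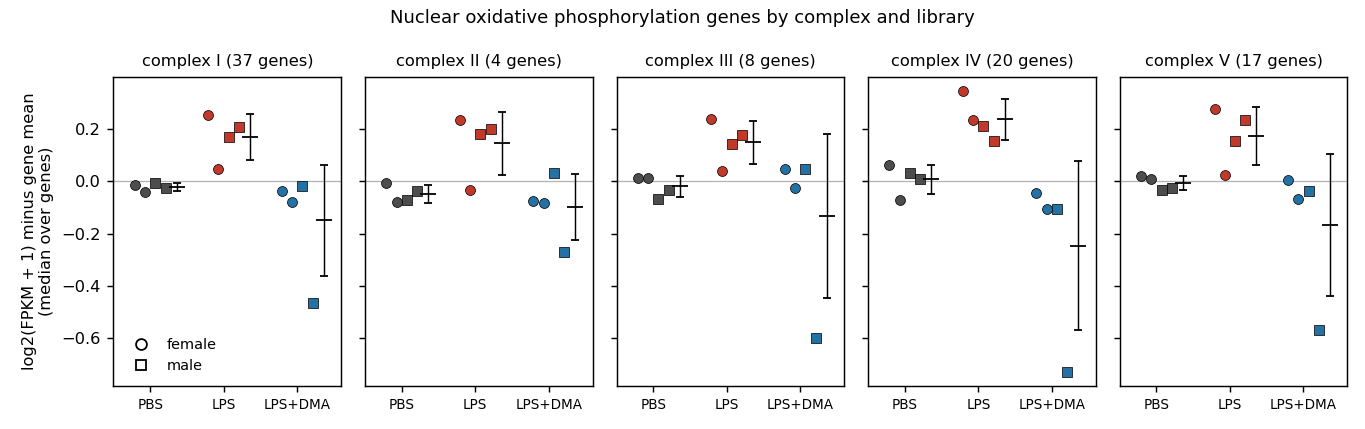
Mean over the tested genes of each complex of log2(FPKM + 1) minus the gene's mean over 12 libraries (y axis), by arm (x axis). The axis label reads median, but the points are means over genes. Points are libraries, circles female and squares male, and bars are the mean ± SD of 4; LPS female replicate 1 is the highest library in each complex and LPS+DMA male replicate 2 the lowest.

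With LPS, the subunits were slightly higher as a group, with no member past the threshold. Of the 86 tested, 84 had a positive change against PBS, and the median log2 change was 0.18, against -0.01 over all 19571 genes tested. The members are short genes, and by deposited length their medians were 0.20 (under 1000 bases), 0.20 (1000 to 3000) and 0.18 (longer), against 0.10, 0.06 and -0.02 in the other nuclear coding genes of these classes. The difference from genes of like length was not tested. No member was called at an adjusted p under 0.05 (limma, Benjamini-Hochberg), where 2 of all genes, 0.0102%, were called in either direction. At an unadjusted p under 0.05 there were 9 members, against 11% of all genes, and limma-voom on recovered reads also called 0. Every LPS library lay above every PBS library for 21 members, a share to be read against 3.59% of all genes. They were 9 of complex I (Ndufa9, Ndufa11, Ndufb4, Ndufb6, Ndufb7, Ndufb8, Ndufs4, Ndufs5 and Ndufs6), Sdhd, the core protein gene Uqcrc2, 8 of complex IV (Cox4i1, Cox4i2, Cox5b-ps, Cox6b1, Cox6c, Cox7b, Cox8b and Ndufa4) and 2 of complex V (Atp5h and Atp5k). Cox5b-ps is deposited as protein coding but bears a pseudogene symbol, so its reads may be shared with Cox5b. Only 1 member, Cox8a, had all LPS libraries below all PBS libraries, read against 646 of the 19571 genes tested.

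The shift was of like size in the complexes. Median changes were 0.18 in complex I (37 of 37 positive), 0.19 in complex II (4 of 4), 0.19 in complex III (8 of 8), 0.25 in complex IV (18 of 20) and 0.17 in complex V (17 of 17). The summed FPKM of all members was 6084, 6067, 6008 and 6015 in the PBS libraries and 7243, 6307, 6704 and 6964 in the LPS libraries (females 1 and 2, then males 1 and 2, the order used for all lists of 4). All 4 LPS sums were above all 4 PBS sums, and LPS female replicate 2 was closest to PBS. That library is the 1 of the LPS arm without Gabra6 and the 1 with the low ribosomal RNA share. When the 4 libraries with Gabra6 above 1 FPKM were left out, the median change of members was -0.0094. This fit, which has a term for sex, compares LPS female replicate 2 alone with 3 PBS libraries, although the summed FPKM of that library, 6307, was above every PBS sum. With a term for brain region in the fit the median was 0.11.

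The 5 members with the smallest p in this comparison were Cox8b, Ndufb8, Cox6a2, Cox4i2 and Ndufa9. Ndufb8, an accessory subunit of the membrane arm of complex I, was at 16.7, 13.4, 18.6 and 18.3 FPKM in PBS and at 24.7, 19.0, 25.2 and 23.4 in LPS. The arms did not overlap, and the log2 change was 0.44 (SE 0.12, adjusted p = 0.283). Ndufa9, which sits where the arms of complex I join, was at 46.0, 43.5, 43.1 and 42.8 FPKM in PBS and at 51.7, 48.0, 51.3 and 54.3 in LPS. It too was higher in every LPS library, by 0.22 on the log2 scale (SE 0.08, adjusted p = 0.374). The other 3 are isoforms of complex IV and are described with their partners. Without LPS female replicate 2, 3 members were called, Cox8b and Ndufb8 higher (adjusted p = 0.0127 and 0.0477) and Cox6a2 lower (0.00612), among 672 genes in all.

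**Figure D2:**
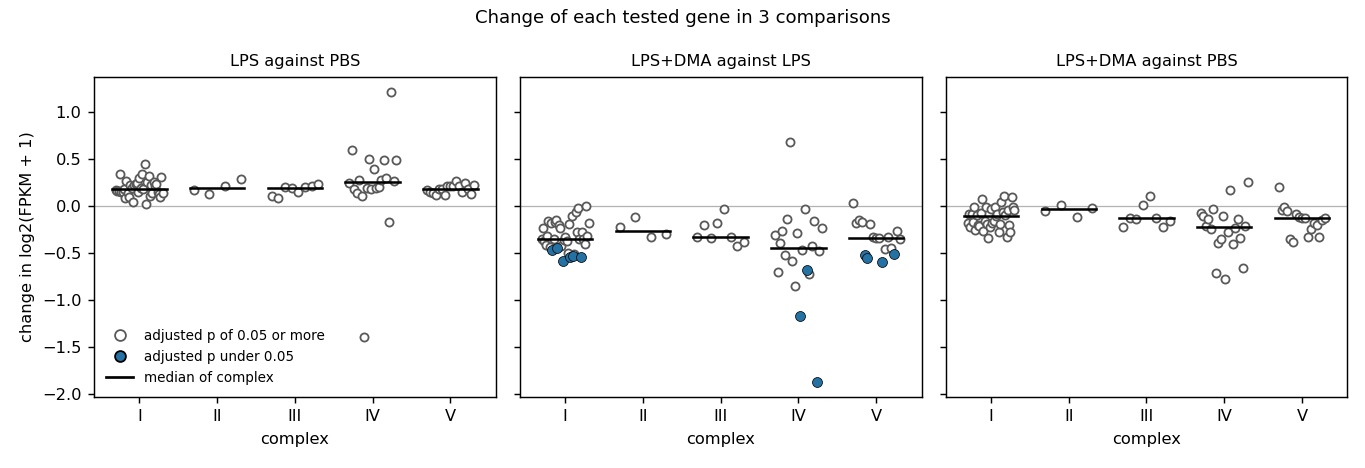
Change in log2(FPKM + 1) of each of the 86 tested genes (y axis) by complex (x axis) in 3 comparisons; filled points have an adjusted p under 0.05 and lines are medians. The 13 filled points, all below 0, are in the comparison of LPS+DMA with LPS; this comparison shares the LPS libraries with the first panel and the LPS+DMA libraries with the third.

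When DMA was added to LPS, 13 members were lower than with LPS alone and none higher. The 13 were 6 subunits of complex I, 3 of complex IV and 4 of complex V, with none of complexes II and III. Over all genes tested 3.88% were called lower and 5.79% higher. That split, 759 lower and 1133 higher, became 2284 lower and 588 higher with plain per-million scaling, where the median of all genes was -0.11 and that of members -0.53. The median log2 change of members was -0.34, against 0.01 over all genes, and 84 of 86 were below 0. By deposited length the medians were -0.43 (under 1000 bases, 3 of 23 called lower), -0.33 (1000 to 3000, 5 of 44) and -0.33 (longer, 5 of 19). In the other nuclear coding genes of these classes they were -0.22 (41 of 367 called lower), -0.13 (308 of 3603) and 0.05 (328 of 10029). That the members differ from genes of like length was not tested. For 21 members every LPS+DMA library was below every LPS library, read against 5.98% of all genes: 10 of complex I (Ndufa5, Ndufa6, Ndufab1, Ndufb2, Ndufb3, Ndufb8, Ndufb10, Ndufb11, Ndufs5 and Ndufs8), Uqcrq, 6 of complex IV (Cox4i1, Cox6b1, Cox7a1, Cox7a2, Cox7b and Cox8b) and 4 of complex V (Atp5h, Atp5j2, Atp5l and Atp5mpl). Medians by complex were -0.35 in I, -0.27 in II, -0.33 in III, -0.45 in IV and -0.34 in V.

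LPS+DMA male replicate 2 carried much of the size of this difference. Without it, 9 members were called lower, 7 of them among the 13, where 2.38% of all genes were called lower. The 6 that lost the call were Atp5e, Atp5g1, Atp5mpl, Ndufa6, Ndufab1 and Ndufc1, with adjusted p of 0.0521 to 0.0755, and Cox6b1 and Cox7b2 gained it. The median change of members was then -0.19, with 76 of 86 below 0. By length class it was -0.26, -0.17 and -0.20, against -0.16, -0.07 and 0.05 in the other coding genes. The count also rested on the LPS libraries with the cerebellar signal: leaving out any 1 of these 3 (LPS female replicate 1 and both LPS males) left 1 member called each time, Cox8b. Fits with a term for brain region, or with terms for choroid plexus and blood, called 0 members and 0 of all genes, and the median change of members was -0.22 and -0.35 in them.

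In complex I, which oxidises NADH, the called members were Ndufs5, Ndufb8, Ndufab1, Ndufb2, Ndufa6 and Ndufc1, all accessory subunits. Ndufs5 was at 87.3, 97.8, 92.6 and 102 FPKM in PBS, at 121, 108, 103 and 108 in LPS, and at 92.2, 80.2, 67.0 and 63.1 in LPS+DMA. Every LPS+DMA library was below every LPS library, and the log2 change was -0.55 (SE 0.11, adjusted p = 0.0218). Its gene lies on chromosome 4 (123606503 to 123611995, minus strand, GRCm39). Ndufb8, on chromosome 19 (44537011 to 44543879, minus strand), was at 13.9, 16.3, 16.7 and 14.8 FPKM in LPS+DMA, below all 4 LPS values given before and within the PBS range, with a change of -0.55 (SE 0.12, adjusted p = 0.0231). For Ndufb8, LPS+DMA male replicate 2 was at 94.8% of the mean of the other 3.

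Ndufab1, the mitochondrial acyl carrier protein that also serves as a complex I subunit, was at 8.31, 8.55, 9.59 and 8.46 FPKM in PBS, 10.9, 8.39, 10.3 and 10.7 in LPS, and 7.98, 7.31, 6.97 and 6.09 in LPS+DMA. All LPS+DMA values lay below all others, by -0.45 against LPS (SE 0.11, adjusted p = 0.0349). Ndufb2 was at 5.62, 4.09, 3.97 and 4.36 FPKM in PBS, 5.65, 4.67, 5.55 and 6.11 in LPS, and 3.92, 3.63, 2.30 and 3.62 in LPS+DMA, again the lowest arm without overlap (-0.58, SE 0.15, adjusted p = 0.0354). Here the lowest library was LPS+DMA male replicate 1. The Ndufb2 gene overlaps Braf on the opposite strand over 146 bases. Since the labels do not say whether strand was kept, reads of the pair within that stretch cannot be told apart. Ndufa6 and Ndufc1 changed by -0.47 and -0.53 (adjusted p = 0.0383 and 0.0395).

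The catalytic core of complex I was not among the called genes. Ndufv1, which holds the flavin that takes electrons from NADH, was at 50.8, 43.8, 52.3 and 52.7 FPKM in LPS and at 47.8, 45.1, 53.4 and 52.3 in LPS+DMA. These ranges overlap almost fully (change -0.01, SE 0.08, adjusted p = 0.973). Ndufs1, the large iron-sulfur subunit, was at 21.9, 18.2, 23.3 and 22.4 FPKM in LPS and 21.3, 20.8, 21.5 and 17.8 in LPS+DMA, a change of -0.07 (SE 0.11, adjusted p = 0.698). Neither p shows that the levels were equal.

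Complex II, the succinate dehydrogenase of the citric acid cycle, had 4 of 4 members below 0 against LPS and none called. Sdha was at 102, 91.4, 102 and 105 FPKM in PBS, 116, 98.9, 118 and 118 in LPS, and 97.5, 95.5, 87.0 and 105 in LPS+DMA. LPS female replicate 2 fell among the PBS values, and LPS+DMA overlapped LPS (-0.22, SE 0.09, adjusted p = 0.148). Sdhc, which anchors the complex in the membrane, gave -0.33 (SE 0.11, adjusted p = 0.0801), Sdhb, its iron-sulfur subunit, -0.12 (SE 0.10) and Sdhd, the other anchor, -0.31 (SE 0.17). Complex II was also the least reduced complex in LPS+DMA male replicate 2, with a summed FPKM at 90.6% of the mean of the other 3 LPS+DMA libraries. That sum follows Sdha, its most abundant gene, at 113%, while Sdhb was at 84.6%, Sdhc at 83.4% and Sdhd at 63.8%.

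Complex III, which passes electrons from ubiquinol to cytochrome c, had 8 of 8 members below 0 and none called. Uqcrc1, a core protein, was at 50.2, 40.7, 48.1 and 54.5 FPKM in LPS and 41.3, 39.2, 47.4 and 41.8 in LPS+DMA (-0.18, SE 0.10, adjusted p = 0.252). Uqcrfs1, the Rieske iron-sulfur protein, was at 101, 81.6, 91.4 and 92.5 FPKM in LPS and 72.1, 74.1, 97.3 and 52.9 in LPS+DMA (-0.33, SE 0.16, adjusted p = 0.187). In both genes LPS+DMA male replicate 1 was inside the LPS range. The smallest adjusted p of complex III was that of Uqcrh, 0.0573, with a change of -0.43 (SE 0.13).

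Within complex IV, cytochrome c oxidase, the called members were the isoforms Cox8b and Cox7a1, given below, and Cox7b, a small subunit whose second form is the testis gene Cox7b2. Cox7b was at 97.5, 92.6, 95.6 and 108 FPKM in PBS, 129, 109, 119 and 119 in LPS, and 93.0, 81.9, 79.7 and 48.5 in LPS+DMA. LPS lay above both other arms in every library, and the change with DMA was -0.68 (SE 0.16, adjusted p = 0.0310), or -0.48 (adjusted p = 0.0402) without LPS+DMA male replicate 2. Cox6b1, on the face of the enzyme toward the intermembrane space, was at 250, 234, 237 and 251 FPKM in LPS and 203, 177, 194 and 97.4 in LPS+DMA. Its arms did not overlap either, with -0.59 (SE 0.18, adjusted p = 0.0657), and -0.34 (adjusted p = 0.0424) when that library was left out. Cox5a, a subunit on the matrix side, gave -0.40 (SE 0.14, adjusted p = 0.0962).

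Complex V had 4 called members: Atp5g1, one of the genes for the ring subunit c, Atp5j2, the f subunit of the membrane part, Atp5e, the epsilon subunit of the stalk, and Atp5mpl, a small membrane subunit. Atp5g1 was at 15.9, 16.6, 16.1 and 16.1 FPKM in PBS, 18.5, 14.8, 21.2 and 19.6 in LPS, and 14.9, 12, 12.3 and 9.93 in LPS+DMA. LPS female replicate 2 fell just below LPS+DMA female replicate 1, all other LPS values were above all LPS+DMA values, and the change was -0.56 (SE 0.13, adjusted p = 0.0304). Atp5j2, on chromosome 5 (145120508 to 145128872, minus strand), was at 35.2, 35.2, 36.4 and 35.3 FPKM in PBS, 46.0, 36.3, 43.2 and 46.7 in LPS, and 34.5, 31.3, 28.7 and 19.5 in LPS+DMA. All LPS+DMA values were below all values of the other arms (-0.60 against LPS, SE 0.15, adjusted p = 0.0357).

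Atp5e was at 46.9, 50.2, 45.7 and 44.3 FPKM in PBS, 60.2, 53.1, 46.9 and 51.9 in LPS, and 49.1, 39.0, 35.8 and 25.4 in LPS+DMA, a change of -0.53 against LPS (SE 0.14, adjusted p = 0.0366) with LPS+DMA female replicate 1 inside the LPS range. Atp5mpl changed by -0.52 (adjusted p = 0.0477). The beta and alpha subunits of the same enzyme were not called. Atp5b was at 279.9, 225, 276 and 296 FPKM in LPS and 230.5, 229, 250.5 and 229 in LPS+DMA (-0.19, SE 0.09, adjusted p = 0.203), with LPS female replicate 2 the lowest of the 8. Atp5a1 was at 261, 222, 244 and 256 FPKM in LPS and 232, 238, 301 and 237 in LPS+DMA, and was one of the 2 members above 0 (0.03, SE 0.10, adjusted p = 0.862).

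**Figure D3:**
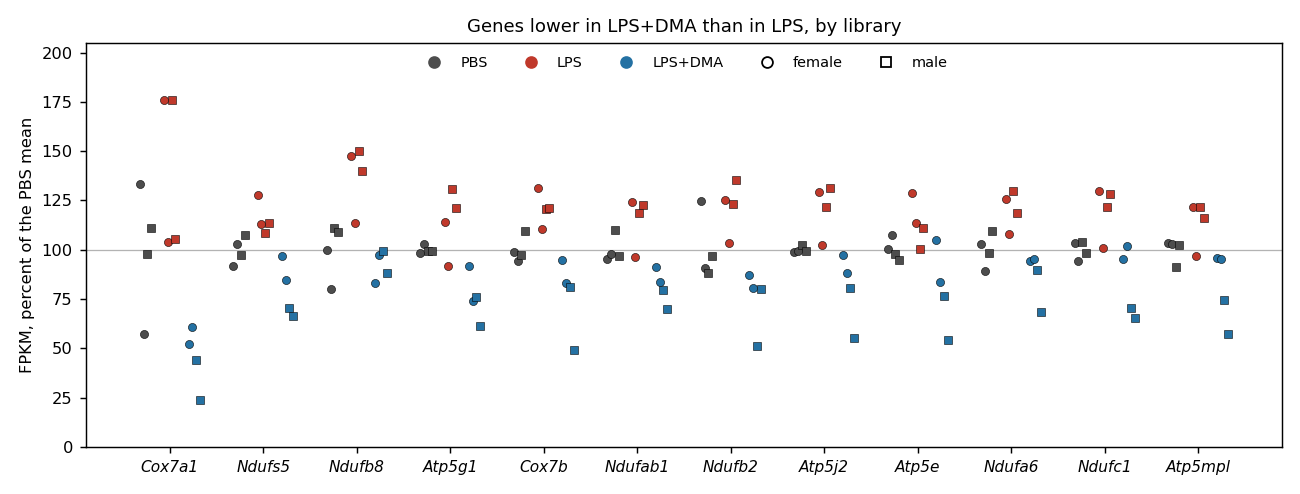
FPKM of 12 of the 13 called members in percent of the gene's PBS mean (y axis), by gene (x axis), with PBS, LPS and LPS+DMA side by side; points are libraries, circles female and squares male. Most LPS+DMA points lie under 100% and most LPS points above it; Cox8b, whose level is near 0 in LPS+DMA, is shown with the isoforms.

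The most marked single gene was Cox8b, the muscle and brown fat isoform of cytochrome c oxidase subunit 8, a low gene on chromosome 7 (140478858 to 140480359, minus strand, GRCm39; no other gene of the table overlaps it). It was at 0.895, 0.602, 1.33 and 0.776 FPKM in PBS, 4.18, 4.01, 2.84 and 2.63 in LPS, and 0.651, 0.202, 0 and 0 in LPS+DMA. LPS stood clear of both other arms in every library and both sexes, LPS female replicate 2 included. These values rest on 8 to 18 reads per library in PBS, 37 to 51 in LPS and 0 to 8 in LPS+DMA. The LPS mean was 3.79 times the PBS mean (log2 change 1.21, SE 0.18, adjusted p = 0.117) and at least 8.93-fold higher than that of LPS+DMA, with libraries under 3 reads set to 3 reads. The log2 change from LPS to LPS+DMA was -1.88 (SE 0.18, adjusted p = 0.00265), the lowest adjusted p of the members in that comparison. Cox8b was called in 22 of 25 settings, and in the 3 others, with a term for brain region, with terms for choroid plexus and blood, and without the 4 Gabra6 libraries, the change was -1.97, -1.51 and -2.0 (adjusted p = 0.107, 0.986 and 0.444).

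Its common partner did not share this pattern. Cox8a was at 398, 443, 385 and 385 FPKM in PBS, 367, 378, 323 and 355 in LPS, and 430.5, 358, 421 and 154 in LPS+DMA. The LPS values were the lower ones against PBS, with a change of -0.18 (SE 0.24, adjusted p = 0.833). As a share of the summed FPKM of the pair, Cox8b averaged 0.227% (SD 0.0872) with PBS, 0.945% (SD 0.176) with LPS and 0.0518% (SD 0.0712) with LPS+DMA, 4 mice each, so subunit 8 mRNA was mostly Cox8a in every library. Markers of striated muscle (18 genes) summed to 9.5 to 16 FPKM in PBS, 6.63 to 20.5 in LPS and 8.7 to 11.6 in LPS+DMA, with overlap between all arms and none of the 18 at 0 throughout. Those of brown fat (8 genes, Lep at 0 throughout) summed to at most 9.9 FPKM in any library.

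Cox7a1, the heart and skeletal muscle isoform of subunit 7a, on chromosome 7 (29883569 to 29885503, plus strand), was at 4.47, 1.93, 3.28 and 3.71 FPKM in PBS, 5.90, 3.48, 5.88 and 3.53 in LPS, and 1.75, 2.04, 1.48 and 0.790 in LPS+DMA. LPS overlapped PBS (0.39, SE 0.24, adjusted p = 0.580), while every LPS+DMA library was below every LPS library (-1.17, SE 0.24, adjusted p = 0.0218). Its common partner Cox7a2 was at 185, 146, 154 and 169 FPKM in LPS and 144, 139, 139 and 68.2 in LPS+DMA, also without overlap but not called (-0.47, SE 0.20, adjusted p = 0.151). Cox7a1 made up 2.79% ± 0.739 of the pair in LPS and 1.21% ± 0.167 in LPS+DMA. Pericyte and smooth muscle markers (14 genes) summed to 101 to 138 FPKM in LPS, 79.1 to 98.3 in PBS and 82.0 to 112 in LPS+DMA, and their part in the Cox7a1 values was not tested.

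Cox6a2, the heart and muscle isoform of subunit 6a, ran the other way. It was at 6.23, 5.90, 7.28 and 6.03 FPKM in PBS, 1.04, 7.83, 0.772 and 0.902 in LPS, and 6.46, 2.89, 4.31 and 1.58 in LPS+DMA. The 3 low LPS libraries are those with high Gabra6 and low Camk2a, and the fourth, LPS female replicate 2, was the highest of all 12. PBS female replicate 1, which also held Gabra6, was among the other PBS values. Its gene overlaps Itgad on the opposite strand, which averaged 0.196 FPKM. The change with LPS was -1.39 (SE 0.44, adjusted p = 0.318), and 0.08 without the 4 libraries with Gabra6. Its partner Cox6a1 was at 232, 252, 274 and 261 FPKM in PBS and 286, 304, 252 and 255 in LPS, with a change of 0.10 (SE 0.20).

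Cox4i2, the lung isoform of subunit 4, was at 2.31, 1.27, 1.49 and 2.21 FPKM in PBS, 3.97, 3.42, 3.03 and 2.50 in LPS, and 2.38, 2.58, 1.16 and 0.683 in LPS+DMA. LPS was above PBS in every library by 0.59 (SE 0.20, adjusted p = 0.339), and LPS+DMA overlapped LPS only at LPS+DMA female replicate 2 and LPS male replicate 2 (-0.70, SE 0.20, adjusted p = 0.0509). The common form Cox4i1, one of the highest members, was at 252, 252, 259 and 249 FPKM in PBS, 317, 286, 289.8 and 305 in LPS, and 234, 252, 285 and 197 in LPS+DMA. It was above all PBS values in each LPS library without passing the test (0.24, SE 0.11, adjusted p = 0.447), and below all LPS values in each LPS+DMA library, also without passing (-0.32, SE 0.11, adjusted p = 0.0844).

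The remaining tissue isoforms were also at a low level. Cox6b2, a testis form, was at 5.75, 0.752, 3.31 and 2.14 FPKM in LPS and at 0.624 to 2.2 in the other arms, so that LPS female replicate 2 was the lowest of its arm. Cox7b2 was at 1.14, 1.95, 0.629 and 0.754 FPKM in LPS and at 0, 0, 0.394 and 0.709 in LPS+DMA, on 33 reads or fewer. Ndufa4l2, a paralog of Ndufa4 known as a hypoxia-induced gene, was at 1.30 to 1.99 FPKM in PBS, 1.96 to 3.67 in LPS and 1.48 to 3.52 in LPS+DMA. Ndufa4 itself, a subunit first assigned to complex I and now to complex IV, was at 151, 145, 139 and 149.7 FPKM in PBS and 202, 151, 171 and 182 in LPS.

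**Figure D4:**
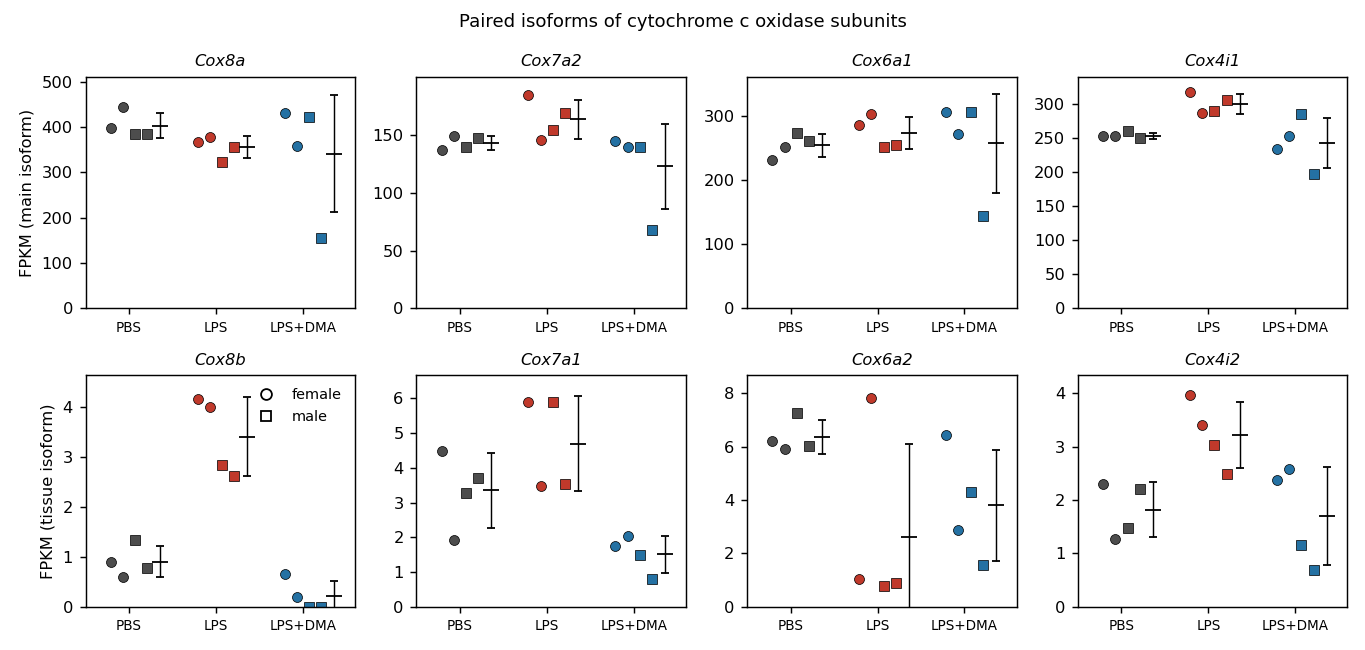
FPKM (y axes, from 0) of 4 common isoforms of cytochrome c oxidase subunits (top) and their tissue isoforms (bottom) by arm (x axis). Points are libraries, circles female and squares male, and bars are the mean ± SD of 4, cut off at 0; Cox8b is between 2.63 and 4.18 in LPS and at most 1.33 elsewhere, and Cox6a2 is near 1 in 3 of the 4 LPS libraries.

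Against PBS, mice with LPS and DMA showed no called member. Limma called 2 of 19571 genes, 0.0102%, and 0 members, with 11 members and 11.4% of all genes at an unadjusted p under 0.05, and limma-voom likewise called 0 members. The median log2 change of members was -0.14, with 76 of 86 below 0, and -0.0045 with 45 of 86 below 0 when LPS+DMA male replicate 2 was left out. The smallest p belonged to Cox8b (-0.67, SE 0.18, adjusted p = 0.324), Cox7a1 (-0.78, SE 0.24, adjusted p = 0.339), Ndufs5 (-0.34, SE 0.11, adjusted p = 0.363), Atp5g1 (-0.38, SE 0.13, adjusted p = 0.376) and Atp5e (-0.35, SE 0.14, adjusted p = 0.389). Of these, only Atp5g1 had all LPS+DMA libraries below all PBS libraries. In all, 7 members had every LPS+DMA library below every PBS library, read against 573 of the 19571 genes tested. Atp5a1 was the 1 member with every LPS+DMA library above every PBS library, at 232 to 301 FPKM against 216 to 224. This 1 is to be read against 727 of the 19571 genes.

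LPS+DMA male replicate 2 was the lowest of the 12 libraries for 72 of the 86 tested members. Its summed member FPKM was 4141, against 6143, 5872 and 6262 in the other 3 LPS+DMA libraries. Over the members its level had a median of 69.6% of the mean of those 3, and 47 of the 78 members with a mean of at least 5 FPKM were under 75%. The complexes were not reduced alike. Summed FPKM was 55.7% of the other 3 in complex IV, 64.6% in III, 74.0% in I, 76.1% in V and 90.6% in II. A sum follows its most abundant genes. In that library the mean over genes of log2(FPKM + 1), centred on each gene's 12-library mean, was -0.47 in I and -0.57 in V. With genes weighted alike, complexes I and V thus stood in the reverse order. Of the 78 members with a mean of at least 5 FPKM, 9 were at 90% or more. They included Sdha (113%), Ndufv1 (107%), Ndufb10 (105%), Atp5b (96.8%) and Atp5a1 (92.1%), while Cox8a was at 38.3%, Uqcr11 at 45.6% and Cox6a1 at 49.1%. Under that limit of 5 FPKM, Ndufb2 was at 110%, and Cox7b2, on 10 reads, at 540%.

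Gene length went with this pattern. Members under 1000 bases were at a median of 54.3% of the other 3 libraries, those of 1000 to 3000 bases at 70.7% and longer ones at 83.9%, with a wide spread within each class. Other nuclear coding genes of the same length classes were at 68.3%, 82.9% and 102%. The members have a median deposited length of 1522.5 bases, against 4451 in the other coding genes tested. Depth was lowest in that library, at 27.5 M reads, and its ribosomal RNA share, 5.93%, was within the range of the others. What sets the library apart was not tested. Over the other 11 libraries, no member with a mean of at least 5 FPKM varied more than 1.88 times between its highest and lowest value, and the median of that ratio was 1.39.

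**Figure D5:**
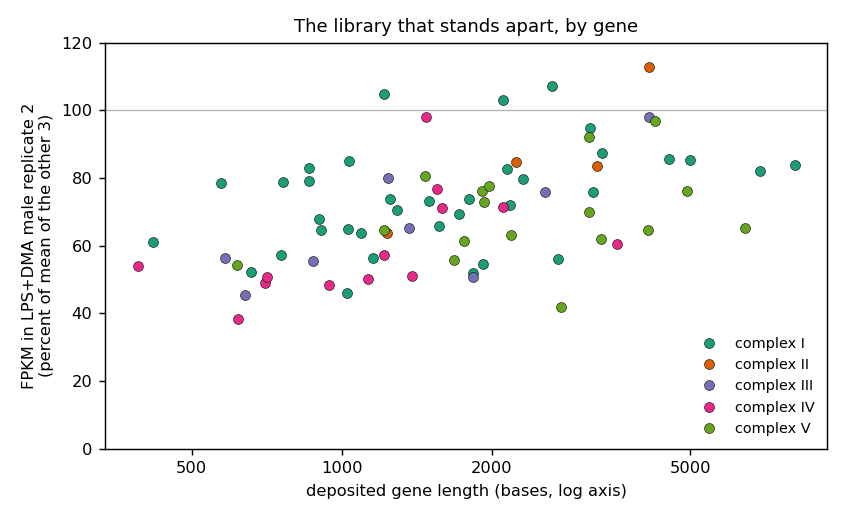
FPKM in LPS+DMA male replicate 2 as a percent of the mean of the other 3 LPS+DMA libraries (y axis) against deposited gene length in bases (x axis, log scale) for the 78 members with a mean of at least 5 FPKM, coloured by complex. The lowest points are Cox8a at 38.3% (619 bases) and Atp5md at 41.9% (2755 bases), while Ndufa2 (572 bases) is at 78.5%, and members near or above 100% are of 1217 bases or longer.

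Genes that work beside the subunits had unequal median changes. Counts of called genes in these lists are to be read against 3.88% of all genes called lower and 5.79% called higher. Among the other nuclear coding genes under 1000 bases, 41 of 367 were called lower. Of 56 tested assembly factors, 6 were lower and 1 higher with DMA than with LPS alone, with a median change of -0.22. Those lower included Ndufaf2, a complex I assembly factor (8.03 ± 1.28 FPKM in LPS and 4.18 ± 0.990 in LPS+DMA, adjusted p = 0.0203), and Cox14, a complex IV assembly factor (-0.76, adjusted p = 0.0306). Ttc19, a complex III factor, was the 1 higher (0.65, adjusted p = 0.0429). Electron carriers and their partners, 7 genes with a median of -0.35, held 2 that were lower: Cycs, the somatic cytochrome c (33.5 ± 2.81 and 25.1 ± 3.67 FPKM, adjusted p = 0.0383), and Etfa, a subunit of the electron transfer flavoprotein (23.8 ± 2.6 and 13.1 ± 3.06, adjusted p = 0.0214). Without LPS+DMA male replicate 2, 1 gene of each of these lists was called, both lower, and the medians were -0.15 and -0.29. Over all genes 2.38% were called lower in that fit.

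The 13 mRNAs of the mitochondrial genome, which encode the partners of these subunits, did not follow them down as a group. With DMA, 9 of 13 were above 0 against LPS, with a median of 0.09, and 1 was called, mt-Nd5, a proton-pumping subunit of complex I, which was higher (2193 ± 69.9 FPKM in LPS and 2828 ± 326 in LPS+DMA, change 0.36, adjusted p = 0.0453). Over all genes 5.79% were called higher. Of the 4 below 0, mt-Nd4l had the largest change of the 13, at -0.59 (SE 0.22, adjusted p = 0.112). Without LPS+DMA male replicate 2 none of the 13 was called and the median was 0.14. In LPS against PBS, 13 of 13 were above 0 with a median of 0.16 and none was called. The difference between nuclear and mitochondrial genes was not itself tested. In LPS+DMA male replicate 2 the summed FPKM of the 13 was 34490, inside the range of the other 3 LPS+DMA libraries.

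Citric acid cycle genes (19) had a median of -0.15 with DMA against LPS, 2 of them called lower, Fh1 (fumarase, -0.46, adjusted p = 0.0225) and Idh3b (-0.42, adjusted p = 0.0288). Genes of glycolysis (19) had a median of 0.04 and none was called. Nuclear genes of mitochondrial ribosomes, 77 tested, had a median of -0.19 with 5 lower, and those of cytosolic ribosomes, 92 tested, a median of 0.01 with 2 higher and 1 lower. Import and inner membrane genes (26) had a median of -0.17 with 2 higher, the outer membrane import receptors Tomm20 and Tomm70a, and 2 lower, Phb and Chchd3. Transcriptional regulators of the pathway, 20 tested, had a median of -0.01 and none was called. The counts of all these lists stand beside 3.88% of all genes called lower and 5.79% called higher. When LPS+DMA male replicate 2 was left out, 1 gene of the cycle, 2 of the mitochondrial ribosomes and 1 regulator were called lower, and 2 import genes and 1 cytosolic ribosomal gene higher. Of all 19571 genes tested, 465 were called lower and 654 higher in that fit.

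The median changes had the same sign in females and males, while single members could differ in sign, 4 of 86 with LPS and 9 of 86 with DMA against LPS. The median change of members with LPS was 0.17 in females and 0.23 in males, and with DMA against LPS -0.20 in females and -0.45 in males, where LPS+DMA male replicate 2 is 1 of the 2 males. A test of the difference between sexes called 0 members and 0 genes in both comparisons (limma), with 0 and 5 members at an unadjusted p under 0.05 against 491 and 1008 of 19571 genes. Each arm and sex held 2 mice.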

How the data were processed

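Messenger RNA of 12 mouse brains was measured by sequencing, 4 mice in each of 3 arms. The authors deposited FPKM for 56748 genes and, as another column, the gene length in bases that they used. The submitters' processing notes list, with no role or order, STAR, HISAT2 2.2.1, GATK, fastp, featureCounts 2.0.6, edgeR 4.0.16 and DESeq2 1.42.0, and the build GRCm39. The labels describe a stranded and an unstranded preparation without saying which was used. Of the members, 34 overlap a gene on the opposite strand, and 18 genes of the same name patterns are pseudogenes or other biotypes, so reads may be split between copies.

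FPKM times length fell on whole reads within 0.1 reads for 100% of values up to 1000 reads, which gave 27.5 to 41.4 M reads (megareads) per library. In each of the 66 pairs, libraries differed beyond sampling noise (chi-square of at least 27.3 per degree of freedom), so each was counted as its own sample.

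Tests used R 4.3.3 with limma 3.58.1 (trend and robust) on log2(FPKM + 1), a scale that understates changes of low genes, with arm and sex as terms over all 12 libraries. Genes with at least 0.5 FPKM in at least 2 libraries were kept (19571), and p-values were Benjamini-Hochberg adjusted over all of them, with a threshold of 0.05. The test was checked on data with known answers. Values in every library are given for up to 10 called members per comparison (or the 5 with the smallest p), tissue isoforms of complex IV with their partners, and core members. Members and gene lists were chosen with earlier results of these data known. Alternatives covered the pseudocount, filter, scaling, variance model, voom on the recovered reads, arms and terms in the fit (a replicate block, a brain region covariate, choroid plexus and blood covariates), leaving out the 4 libraries with Gabra6 and leaving out each library in turn. Promoter sequences are from RefSeq, build GRCm38.p6, and gene positions from the deposited table, build GRCm39.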

Additional observations from a re-analysis of the deposited data

Results flagged for a closer look

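Among 108 groups of 4 libraries (named members and complex sums, by arm), 12 held a library far from the other 3, where chance flags about 1 in 20 groups. In PBS these were Atp5a1 and Uqcrfs1 in female replicate 1 (224 and 85.8 FPKM, the others at 216 to 217 and 76.5 to 77.9) and Atp5j2 in male replicate 1 (36.4, the others 35.2 to 35.3), all small gaps in a tight arm.

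In LPS, female replicate 2 was apart for Cox6a2 (7.83 FPKM, the others 0.772 to 1.04), Sdha (98.9, the others 116 to 118), Sdhb (41.7, the others 48.9 to 49.3) and the complex II sum (227, the others 266 to 272). It is the LPS library without Gabra6, and its ribosomal RNA share was 0.0499%, against 3.6% to 10.9% in the other 11 libraries.

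In LPS+DMA, male replicate 2 was apart for Cox7a2 (68.2 FPKM, the others 139 to 144), the complex I sum (1342, the others 1779 to 1841) and the complex III sum (436, the others 654 to 689). Male replicate 1 was apart for the ATP synthase genes Atp5a1 (301 FPKM, the others 232 to 238) and Atp5b (250.5, the others 229 to 230.5).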

How the results depend on the processing

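The 13 members called lower with DMA against LPS became 1 without the filter, 1 with the LPS and LPS+DMA arms fitted alone, and 0 with a brain region covariate, with choroid plexus and blood covariates, or without the 4 libraries with Gabra6 above 1 FPKM. Plain per-million scaling gave 58, moved the median of all genes to -0.11 and turned 1133 higher and 759 lower calls over all genes into 588 and 2284. The stricter filter gave 19, and the other fits 11 to 13. Leaving out 1 library gave 1 to 33, among them 6, 5 and 5 without PBS male replicate 1, PBS male replicate 2 or LPS+DMA female replicate 2, 24 without LPS+DMA male replicate 1, and 33, of which 1 was higher, without LPS female replicate 2. For LPS against PBS the leave-one-out counts were 0 to 3. Without the 4 libraries with Gabra6 the median change of members with LPS turned to -0.0094 and that of Cox6a2 to 0.081. The cause was not tested. All 24 alternatives kept a negative median with DMA against LPS (-0.53 to -0.13).

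Whether replicate numbers pair the mice is not settled: 6 of 12 same-numbered pairs had a correlation over 0.1, and 7 of 12 libraries correlated best with their own number. The highest were the PBS and LPS pairs of female replicates 1 and 2, at 0.376 and 0.392. Values were centred on arm means only, so differences between the sexes also enter these correlations. With the replicate block, 11 of the 13 members were called. Depth limits Cox8b, Cox7b2 and Cox7a1, which rest on 0 to 120 reads per library.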
